A study of Mus musculus with 8 samples.

Results

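The genes of the inhibin and activin subunits (*Inha*, *Inhba*, *Inhbb*), the follistatins (*Fst*, *Fstl3*) and the activin receptors (*Acvr1b*, *Acvr2a*, *Acvr2b*) were described in the juvenile ovary. These 8 genes were found by symbol among the 45583 symbols of the deposited count table, and all 8 were among the 16601 genes with enough counts to be tested. Ovarian RNA came from 4 WT and 4 GOAT KO female C57/Bl6 mice aged 3 weeks, littermates from crosses of heterozygous parents, with 1 ovary and 1 library per mouse. GOAT is the enzyme that acylates ghrelin, and GOAT KO mice lack its gene, *Mboat4*, in every tissue, so that an effect in the ovary cannot be told apart from one that reaches it from elsewhere in the body. The libraries carry animal numbers, 1118, 1119, 1120 and 1121 for WT and 1139, 1140, 1141 and 1146 for GOAT KO.

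Gene counts summed to between 16147216 and 19481798 per library. *Mboat4* had 1, 1, 1 and 3 counts in the libraries labelled WT and 5, 7, 7 and 8 in those labelled GOAT KO. All were near the floor, with at most 8 counts, and their order was the reverse of what loss of the gene alone would give. Which part of the gene these reads cover is not known here, and whether so few reads bear on the genotypes was not tested. Groups are therefore named as labelled, and every direction below rests on the labels. The study left out 1 library of each group for its place on a scaling plot without naming them, and an earlier analysis of these data pointed to WT 1120 and GOAT KO 1139. Results are given with all 8 libraries and with the 6 that remain without these. Summed levels of 12 granulosa cell markers were 6134 to 6177 CPM (counts scaled to library size) in libraries labelled GOAT KO and 5199 to 6043 CPM in WT. These ranges did not overlap, as was so for 2.92% of single genes tested. Of the 12 markers edgeR, DESeq2 and limma-voom called 0 with 8 libraries, while 2, *Fshr* and *Hsd17b1*, had an unadjusted p under 0.05 by each tool. With 6 libraries edgeR called 2, *Fshr* and *Cyp19a1*, and 6 had an unadjusted p under 0.05. Of all genes 1.67% were called and 767 of 16601 had such a p with 8 libraries, against 2.39% and 1574 of 16641 with 6. With 8 libraries log2 fold changes lay under 0 for 4 of the 12 markers (*Amh*, *Foxl2*, *Hsd17b7* and *Gatm*). *Gja1* alone, with a WT mean of 3458 CPM and a GOAT KO mean of 3712 CPM, made up most of the sum. Its own ranges overlapped, with up to 3632 CPM in WT and from 3609 CPM in GOAT KO. Summed levels of 6 fat cell markers lay between 7.43 and 16.6 CPM in WT and between 13.9 and 203 CPM in GOAT KO, the highest in GOAT KO 1139. Of these markers 4 had enough counts to be tested, *Adipoq*, *Plin1*, *Cidec* and *Retn*, and all 4 were called higher with 8 libraries by edgeR, against 1.67% of all genes. *Plin1* alone was called with 6 libraries by edgeR, and with 8 by DESeq2 and by limma-voom. In whole ovary, more cells of a type and more RNA per cell cannot be told apart.

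Inhibins and activins are secreted dimers of the TGF-beta family. An alpha subunit joined to a beta subunit forms an inhibin, which lowers FSH release from the pituitary, while a pair of beta subunits forms an activin, which raises it and acts within the follicle. Granulosa cells are the main ovarian source of the subunits. Follistatins bind activins and keep them from their receptors. Activins bind a type II receptor, which then recruits and phosphorylates a type I receptor, and that receptor passes the signal to SMAD proteins.

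Per kilobase of exon, the alpha subunit was far above the rest. The mean level over the 8 libraries, scaled to exon length and library size (RPKM), was 2399 for *Inha*, 211 for *Inhbb*, 78.4 for *Fst*, 22.6 for *Inhba*, 9.10 for *Acvr1b*, 7.34 for *Acvr2a*, 2.32 for *Fstl3* and 1.93 for *Acvr2b*. *Inha* was at the 99.99th percentile of the tested genes on this scale, and *Inhbb* at the 99.5th. *Inha*, *Inhbb*, *Fst* and *Inhba* came in this order in every library, whereas *Inhba* in WT 1118 (7.75 RPKM) lay under *Acvr1b* in that library (9.59 RPKM). The ranges of *Acvr1b* and *Acvr2a* overlapped, as did those of *Fstl3* and *Acvr2b*. For *Fst* the exon length of 4589 bases includes introns retained in some annotated transcripts, which lowers its RPKM.

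**Figure D1:**
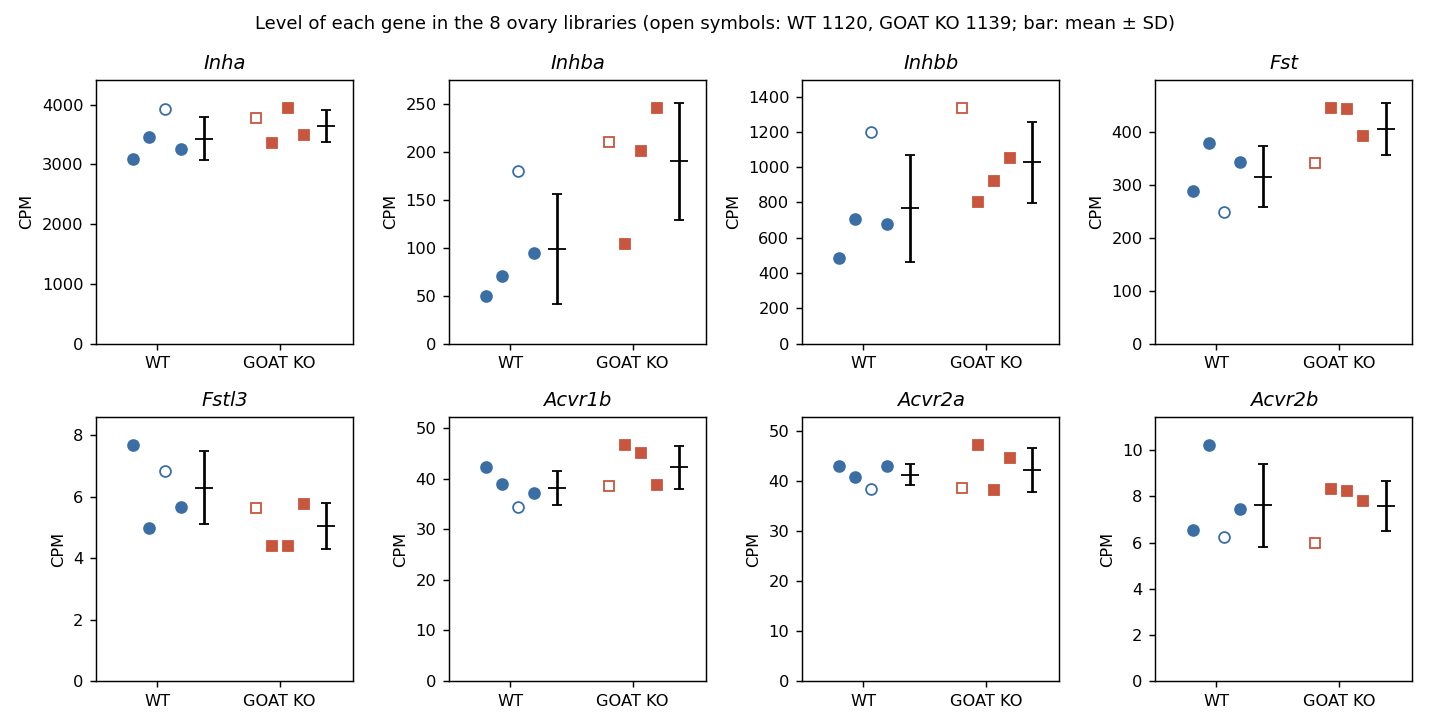
Level of each of the 8 genes in CPM (vertical axis, starting at 0) in the 4 libraries labelled WT (circles) and the 4 labelled GOAT KO (squares), with the mean ± SD beside each group. Open symbols are WT 1120 and GOAT KO 1139. *Inhba* and *Inhbb* were high in WT 1120 (179.7 and 1198 CPM) and lower in the other WT libraries, and in none of the 8 genes were the groups apart.

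With edgeR's quasi-likelihood test over all 8 libraries, 1 of the 8 genes, *Inhba*, was called, and it was higher in GOAT KO. A call needed an unadjusted p under 0.05 and a log2 fold change beyond 0.5 in either direction. Of all genes tested, 1.67% were called by this rule. With a limit of 0.3, which the study used for its Ingenuity analysis, *Fst* joined it, against 2.85% of all genes. The 6 libraries gave calls for *Inhba* and *Inhbb* (2.39% of all genes were called), and for *Fst* as well at the limit of 0.3 (4.77%). After Benjamini-Hochberg adjustment over all genes, none of the 8 had an adjusted p from edgeR under 0.05 in either set of libraries, nor from DESeq2 or limma-voom over the 8, while 2 had an unadjusted p under 0.05 with 8 libraries by each of these tools and 3 with 6 by edgeR. The libraries of the groups overlapped for each of the 8 genes, whereas 2.92% of all genes tested had groups that did not overlap. The median log2 fold change of the 8 genes was 0.12, and that of all genes tested was -0.00035. *Inhba*, *Inhbb* and *Fst* were among the genes that the study listed from these libraries, so their calls are not independent evidence.

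**Figure D2:**
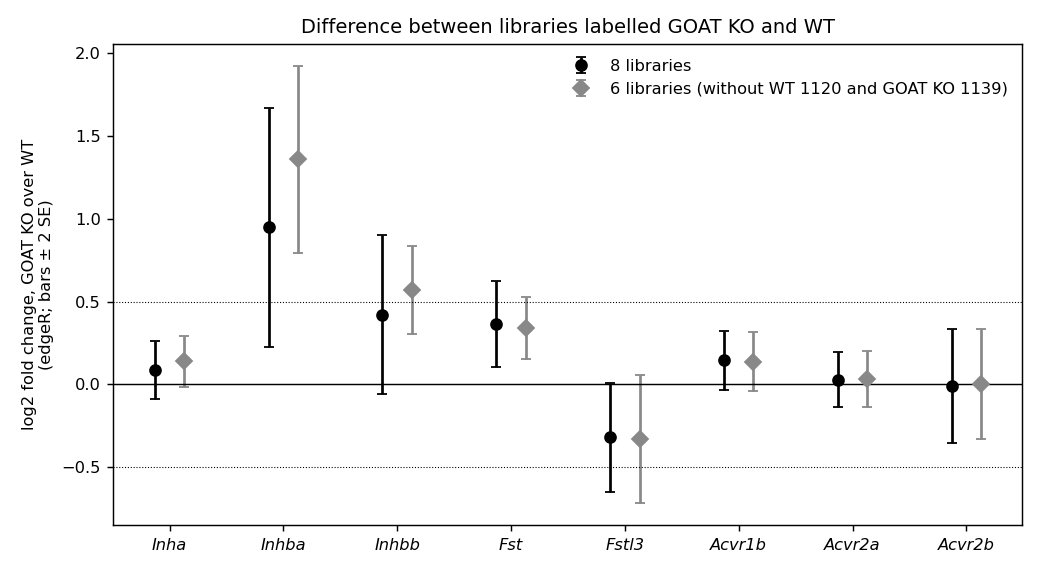
Log2 fold change of the libraries labelled GOAT KO over those labelled WT (vertical axis) for each gene, from edgeR, with all 8 libraries (circles) and with 6 (diamonds). Bars are ± 2 SE and dotted lines mark the limit of 0.5. *Inhba* was at 0.95 and 1.36, *Inhbb* at 0.42 and 0.57, and *Fst* at 0.36 and 0.34, while *Fstl3* lay under 0 in both.

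*Inha* encodes the alpha subunit, which is found in inhibins but not in activins. It lies on chromosome 1 from 75507077 to 75510366 (GRCm38, + strand). Its level was 3089, 3456, 3928 and 3254 CPM in WT 1118, 1119, 1120 and 1121, against 3786, 3360, 3946 and 3495 CPM in GOAT KO 1139, 1140, 1141 and 1146. The highest and the lowest library were 1.28-fold apart, and WT 1120 was as high as GOAT KO 1141. On the log2 scale the groups differed by 0.09 (SE 0.089, unadjusted p = 0.343 from edgeR), and the interval of ± 2 SE ran from -0.09 to 0.27. The 6 libraries gave 0.14 (SE 0.077, unadjusted p = 0.0951 from edgeR).

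*Inhba* encodes the beta A subunit of inhibin A and activin A. It lies on chromosome 13 from 16011851 to 16031621 (+ strand). Its level was 49.5, 70.3, 179.7 and 93.8 CPM in WT 1118, 1119, 1120 and 1121. GOAT KO 1139, 1140, 1141 and 1146 had 210.4, 103.4, 200.4 and 245.3 CPM. WT 1120 lay above GOAT KO 1140, and these were the libraries by which the groups overlapped. In 15 of the 16 pairs of a GOAT KO with a WT library the former was higher. The fold was 1.93, a log2 fold change of 0.95 (SE 0.36, unadjusted p = 0.0235 and adjusted p = 0.983 from edgeR). The exact permutation test of log2 CPM gave a two-sided p = 0.0571, where 4 against 4 cannot go under 0.0286. Without WT 1120 and GOAT KO 1139 the fold was 2.57 (log2 1.36, SE 0.28, adjusted p = 0.198 from edgeR).

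*Inhbb* encodes the beta B subunit of inhibin B and activin B. It lies on chromosome 1 from 119415465 to 119422248 (− strand). Its level was 486.7, 706.6, 1198 and 676.8 CPM in WT 1118, 1119, 1120 and 1121. GOAT KO 1139, 1140, 1141 and 1146 had 1335, 803.4, 919.6 and 1050.4 CPM. All libraries labelled GOAT KO lay above the WT libraries other than WT 1120, which was second of all 8. The log2 fold change was 0.42 (SE 0.24, unadjusted p = 0.108 by edgeR) and missed the threshold, with an interval of ± 2 SE from -0.06 to 0.90. Over the 6 libraries it was 0.57 (SE 0.13, unadjusted p = 0.0014 and adjusted p = 0.278 from edgeR). Leaving out WT 1120 alone gave 0.72 (unadjusted p = 0.00171 from edgeR).

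The beta subunits differed between mice more than genes of like level did. The biological coefficient of variation that edgeR estimated within the groups was 35.04% for *Inhba* and 23.9% for *Inhbb*. Among the 500 tested genes nearest in level, 99.8% and 99.6% had a lower one. For *Inha* it was 9.45%, with 66% of its neighbours lower. WT 1120 widened the WT range. Without it the highest WT level of *Inhba* was 1.90-fold the lowest, against 3.63-fold with it.

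**Figure D3:**
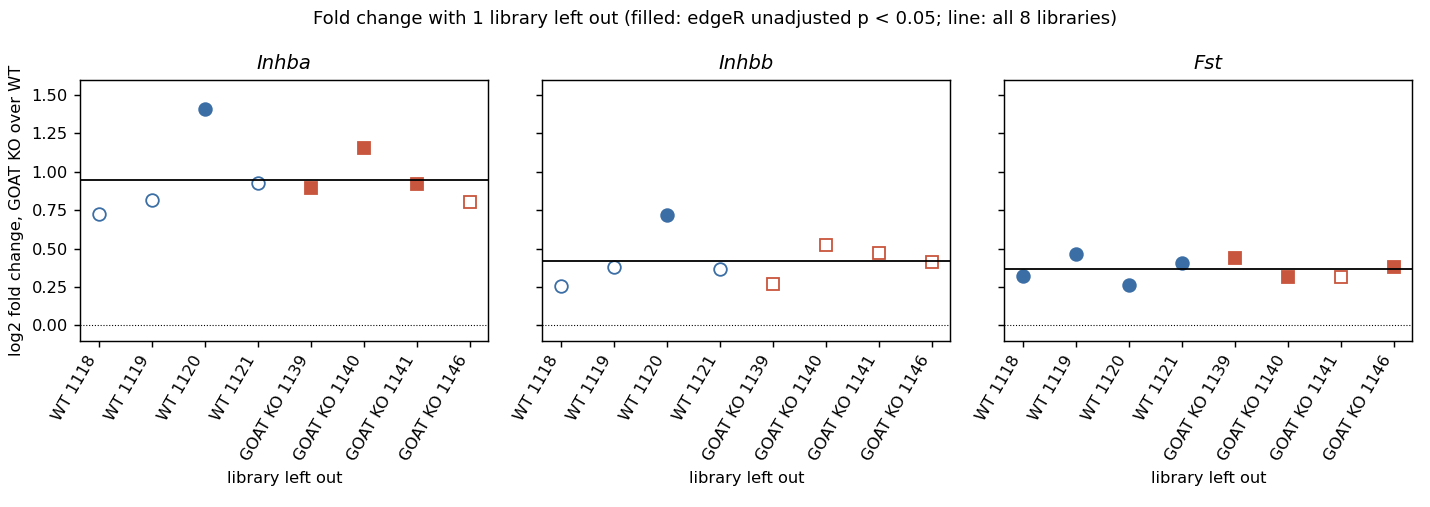
Log2 fold change of *Inhba*, *Inhbb* and *Fst* (vertical axis) from edgeR when the library named on the horizontal axis was left out. Filled symbols had an unadjusted p under 0.05, circles leave out a WT and squares a GOAT KO library, and the line is the value with all 8. *Inhba* ranged from 0.73 to 1.41, *Inhbb* from 0.26 to 0.72 and *Fst* from 0.26 to 0.46, with the highest values of *Inhba* and *Inhbb* without WT 1120.

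The fold change of *Inhba* kept its sign whichever library was left out. Its unadjusted p rose to 0.0623 without WT 1118, 0.0662 without WT 1119, 0.0508 without WT 1121 and 0.0662 without GOAT KO 1146, all from edgeR. *Inhba* fell to 0.73 on the log2 scale without WT 1118 and reached 1.41 without WT 1120. *Fst* stayed between 0.26 and 0.46, and only leaving out GOAT KO 1141 brought its unadjusted p above 0.05 (0.0542 from edgeR).

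*Inhba* and *Inhbb* rose and fell together from mouse to mouse. Over the 8 libraries Pearson's r of their log2 CPM was 0.91 (exact permutation of the pairings, p = 0.00213, adjusted p = 0.0497 over the 28 pairs of the 8 genes). Spearman's rho was 0.86 (exact permutation p = 0.0107, adjusted p = 0.195). Without WT 1118 and WT 1119, the libraries farthest from the median of *Inhba*, r was 0.81, and with the group means removed it was 0.88. *Inha* ran with both (r of 0.84 with *Inhbb* and 0.79 with *Inhba*), but the adjusted p from exact permutation was 0.0988 and 0.190. Within a group, 4 libraries are too few for a correlation.

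**Figure D4:**
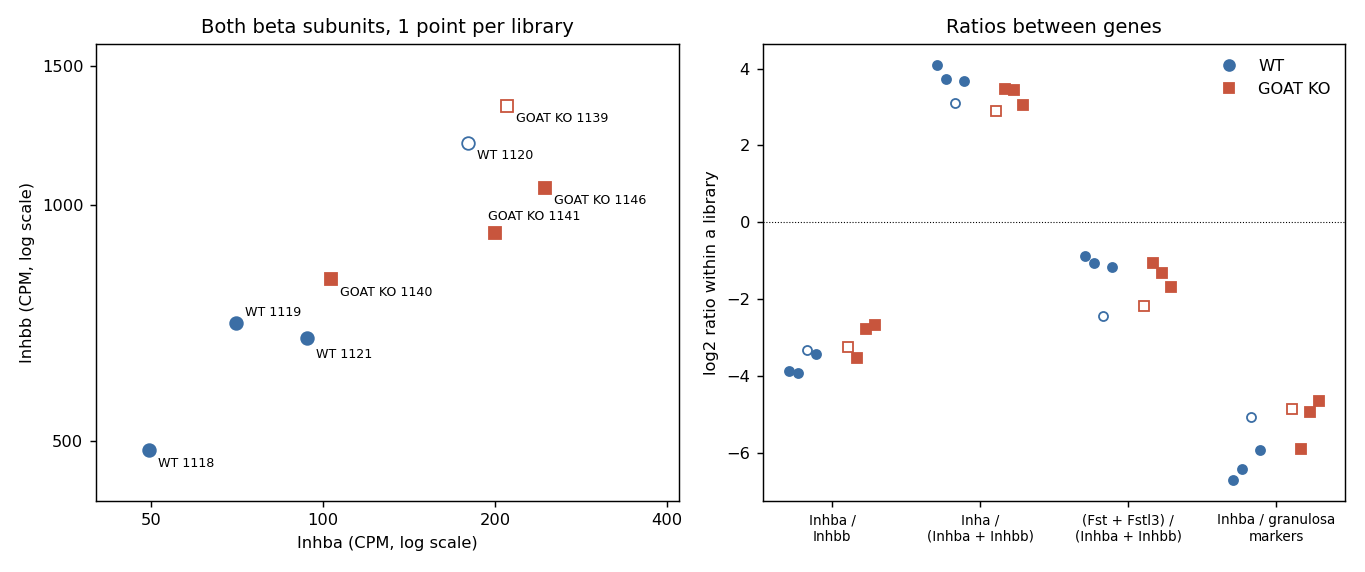
Left, *Inhbb* against *Inhba* in CPM on log axes, 1 point per library. Right, log2 ratios within each library on the vertical axis. Circles are WT, squares are GOAT KO and open symbols are WT 1120 and GOAT KO 1139. On the left WT 1120 sits among the libraries labelled GOAT KO, and on the right each of the 4 ratios has groups that overlap.

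Since the beta subunits ran together, the 250 bases before each start were set side by side, from the RefSeq promoters of GRCm38.p6, which hold 7 of the 8 genes. The stretch of *Inhba* is chr13:16011601-16011850 (+ strand) and that of *Inhbb* is chr1:119422249-119422498 (− strand), each written 5′ to 3′ with matches to the motifs searched in capitals.
Inhba: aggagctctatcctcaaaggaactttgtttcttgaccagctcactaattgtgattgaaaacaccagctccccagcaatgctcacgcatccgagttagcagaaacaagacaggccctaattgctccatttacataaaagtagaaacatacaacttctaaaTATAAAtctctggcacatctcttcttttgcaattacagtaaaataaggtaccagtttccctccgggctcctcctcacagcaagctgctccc
Inhbb: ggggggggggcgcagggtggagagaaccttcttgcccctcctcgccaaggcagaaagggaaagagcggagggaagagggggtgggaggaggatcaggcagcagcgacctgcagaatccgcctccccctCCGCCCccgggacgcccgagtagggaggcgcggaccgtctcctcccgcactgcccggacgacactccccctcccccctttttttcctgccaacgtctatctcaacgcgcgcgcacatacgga
G and C made up 43.2% of the *Inhba* stretch and 68.0% of the *Inhbb* stretch, around a median of 52.4% over the 32851 promoters of the table. *Inhba* held TATAAA from 91 to 86 bases before its start, a motif found in 12.4% of all promoters on either strand. *Inhbb* held GGGCGG once, on the opposite strand, from 122 to 117 bases before its start, and 32.7% of promoters hold it. TGACGTCA (1.55% of promoters), TGACG, which lies within it (17.8%), TGAGTCA (4.46%), AGGTCA (14%) and CCAAT (33.8%) had no match in either window. The windows shared no motif of those searched. Over all libraries, the annotated introns of *Inhba* before the one in its coding sequence had 2, 6 and 37 reads, against 747 on that intron. Which start these ovaries used was not tested, so the windows may not be the promoters in use.

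Within a library, *Inhba* made up a small part of the beta subunit counts per kilobase of exon. Reads across the introns ran the other way in every library, with 23 to 148 for *Inhba* and 3 to 40 for *Inhbb*. Per kilobase, the share of *Inhba* in summed *Inhba* and *Inhbb* was 6.34%, 6.21%, 9.08% and 8.45% in WT 1118, 1119, 1120 and 1121. In GOAT KO 1139, 1140, 1141 and 1146 the share was 9.50%, 7.89%, 12.7% and 13.5%. GOAT KO 1141 and 1146 stood above the other 6 libraries. The log2 ratio of *Inhba* to *Inhbb* was -3.64 ± 0.30 (SD, n = 4) in WT and -3.07 ± 0.40 (SD, n = 4) in GOAT KO, a difference of 0.57 (two-sided exact permutation test, p = 0.114). Among the 6 libraries the difference was 0.74 (exact permutation p = 0.2, where 3 against 3 cannot go under 0.1).

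The alpha subunit exceeded the beta subunits in every library. *Inha* per kilobase was 17.1, 13.2, 8.60 and 12.7 times the summed *Inhba* and *Inhbb* in WT 1118, 1119, 1120 and 1121. The ratio was 7.40, 11.1, 10.8 and 8.31 in GOAT KO 1139, 1140, 1141 and 1146. WT 1118, 1119 and 1121 had the 3 highest ratios, and WT 1120 lay among the libraries labelled GOAT KO. The log2 ratio differed by -0.44 between the groups (exact permutation p = 0.143), and by -0.51 over the 6 libraries (exact permutation p = 0.1). With 1 library left out the difference ran from -0.62 without WT 1120 (exact permutation p = 0.0286) to -0.29 without WT 1118 (exact permutation p = 0.286). No other library left out brought the exact permutation p under 0.05, and WT 1120 was the WT library that lay among the others, so its removal sets the groups apart by itself.

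*Inhba* was also set against granulosa cell markers, since their summed levels did not overlap between the groups. It stood at 0.952%, 1.16%, 2.98% and 1.64% of the summed markers in WT 1118, 1119, 1120 and 1121, against 3.43%, 1.67%, 3.27% and 3.97% in GOAT KO 1139, 1140, 1141 and 1146. The log2 ratio differed by 0.95 (exact permutation p = 0.0571). The log2 fold change of *Inhba* itself was 0.95 by edgeR and 1.04 by limma-voom. Over the 6 libraries it differed by 1.19 (exact permutation p = 0.1).

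*Fst* encodes follistatin, which binds activin tightly. It lies on chromosome 13 from 114452290 to 114458951 (− strand). The last intron of the gene can end at either of 2 sites, and the choice sets the end of the protein. Both begin after base 114454280, and the long form (transcript Fst-201, a precursor of 344 residues) resumes at 114453505 and the short form (Fst-202, 317 residues) at 114453805. The bases around this splice, from GENCODE transcripts of GRCm38, begin with the last 30 of the fifth exon. Capitals mark the coding bases and stop codon of the last exon in the long form, at chr13:114453423-114454309 with the intron removed, and the stop codon that the splice itself completes in the short form, at chr13:114453786-114454309.
Fst-201: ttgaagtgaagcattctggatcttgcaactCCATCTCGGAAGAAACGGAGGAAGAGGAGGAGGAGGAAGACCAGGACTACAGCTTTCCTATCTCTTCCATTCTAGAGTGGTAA
Fst-202: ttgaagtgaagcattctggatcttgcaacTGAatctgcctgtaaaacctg
The long form gains 80 coding bases from its last exon, rich in GAG and GAA codons, which encode the acidic amino acid glutamate. In the short form 1 base of the stop codon lies before the intron and 2 after it.

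The level of *Fst* was 287.8, 378.6, 249.0 and 343.7 CPM in WT 1118, 1119, 1120 and 1121, against 340.2, 444.9, 442.7 and 392.9 CPM in GOAT KO 1139, 1140, 1141 and 1146. WT 1120, the WT library with most *Inhba* and *Inhbb*, had the least *Fst*. Among the libraries labelled GOAT KO, 1139 was the lowest and lay under WT 1119 and 1121. The fold was 1.29 (log2 0.36, SE 0.13, unadjusted p = 0.0166 and adjusted p = 0.983 from edgeR), and the exact permutation test gave p = 0.0857. The 6 libraries gave a log2 value of 0.34 (SE 0.094, with 0.373 as edgeR's adjusted p), and there each library labelled GOAT KO lay above each WT library. Groups that did not overlap in the 6 libraries were found for 3 of the 8 genes (*Inhba*, *Inhbb* and *Fst*) and for 15.8% of all genes tested.

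*Fstl3* encodes a second activin-binding protein of the follistatin family. It lies on chromosome 10 from 79777272 to 79782630 (+ strand) and was low, with 72 to 125 counts per library. Its level was 7.67, 4.99, 6.85 and 5.66 CPM in WT 1118, 1119, 1120 and 1121, against 5.62, 4.394, 4.397 and 5.75 CPM in GOAT KO 1139, 1140, 1141 and 1146. On the log2 scale the groups differed by -0.32 (SE 0.17, unadjusted p = 0.0802 from edgeR), with an interval of ± 2 SE from -0.65 to 0.01, and the 6 libraries gave -0.33 (SE 0.19). Both follistatins ran in opposite directions across the mice. Pearson's r of *Fst* with *Fstl3* was -0.90 (exact permutation p = 0.00355, adjusted p = 0.0497) and Spearman's rho was -0.81 (exact permutation, adjusted p = 0.195). Without WT 1118 and WT 1120, the libraries farthest from the median of *Fst*, r was -0.86, and with the group means removed it was -0.84. An opposite-strand gene, *Prss57*, overlaps *Fstl3* but had no more than 2 counts in a library.

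The follistatins were also set against the beta subunits. Per kilobase, summed *Fst* and *Fstl3* were 0.539, 0.478, 0.184 and 0.444 of summed *Inhba* and *Inhbb* in WT 1118, 1119, 1120 and 1121. The ratio was 0.220, 0.482, 0.397 and 0.308 in GOAT KO 1139, 1140, 1141 and 1146. WT 1120 and GOAT KO 1139 had the lowest ratios of all. The log2 ratio differed by -0.17 (exact permutation p = 0.686) and by -0.32 with the 6 libraries (exact permutation p = 0.3). It differed by -0.52 without WT 1120 (exact permutation p = 0.2), and its sign turned without GOAT KO 1139 (0.031, exact permutation p = 0.971).

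Reads across the last *Fst* intron were more often from the long form in each library but one. The long-form splice had 167, 232, 131 and 196 reads in WT 1118, 1119, 1120 and 1121, against 0, 249, 168 and 159 in GOAT KO 1139, 1140, 1141 and 1146. The short-form splice had 25, 51, 21 and 36 reads in WT and 38, 49, 47 and 44 in GOAT KO, in the same order. GOAT KO 1139 thus had no read of the long form, while its other *Fst* junctions had a mean of 81.8 reads. In that library 7 reads joined an earlier base of the fifth exon to the long-form site, over an intron outside the annotation (114453506 to 114454402) that had 1 read in the other 7 libraries together. A 0 at a well-read junction was uncommon in these files. Of 2390 junctions with at least 100 reads in each of the other 7 libraries, 9 (0.377%) had 0 reads in GOAT KO 1139. By the same count this was 1.19% in WT 1118 and 0% to 0.166% in the remaining libraries. In any 1 of the libraries it was so for 56 of 3105 (1.80%).

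**Figure D5:**
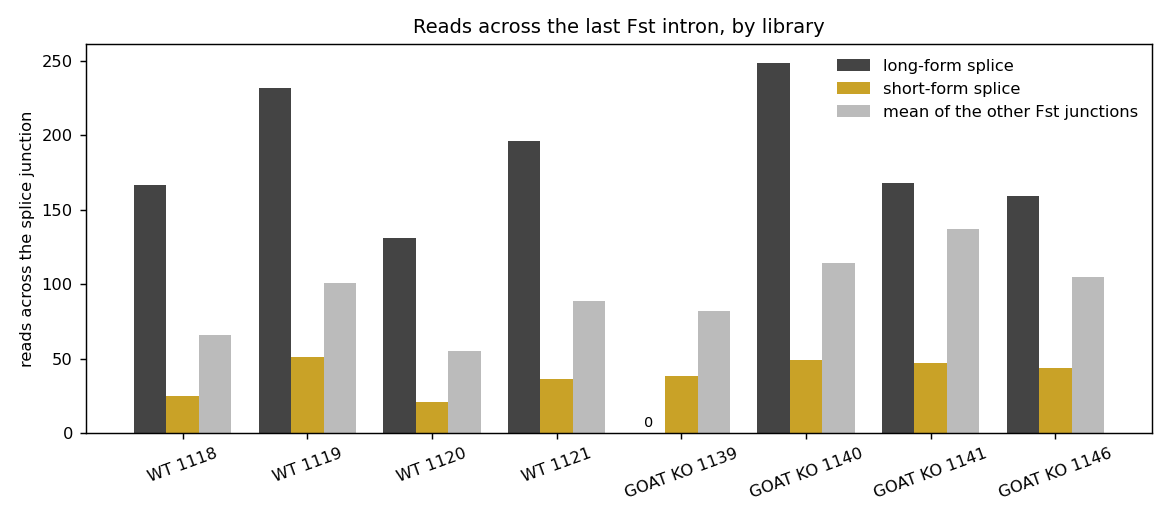
Reads across the last *Fst* intron in each library (bars from 0), spliced to the long form (dark) or the short form (yellow), beside the mean over the other 6 annotated *Fst* junctions, which include the short form (grey). The long form had 131 to 249 reads in 7 libraries and 0 in GOAT KO 1139, and the short form had 21 to 51 reads.

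Against the mean of the other *Fst* junctions, the long-form splice was read less in the libraries labelled GOAT KO. The ratio was 2.54, 2.30, 2.37 and 2.21 in WT 1118, 1119, 1120 and 1121, against 0, 2.18, 1.22 and 1.52 in GOAT KO 1139, 1140, 1141 and 1146. GOAT KO 1140 was just under the lowest WT library, and the others were well below. The groups did not overlap (exact permutation p = 0.0286, the smallest that 4 against 4 allow), also without GOAT KO 1139 (exact permutation p = 0.0286, the smallest that 3 against 4 allow). Leaving out any 1 of the 4 WT libraries gave an exact permutation p of 0.0571. Over the 6 libraries the difference was -0.71, at the smallest p that 3 against 3 allow (exact permutation p = 0.1). Per 1000 gene counts of *Fst* the long form had 35.9, 34.0, 28.8 and 31.1 reads in WT 1118, 1119, 1120 and 1121, against 0, 34.2, 19.4 and 23.5 in GOAT KO 1139, 1140, 1141 and 1146. On this scale GOAT KO 1140 lay above 3 of the 4 WT libraries (exact permutation p = 0.114, and 0.2 without GOAT KO 1139). With the junction before the last as the reference, the ratio was 3.48, 1.41, 1.51 and 1.46 in WT 1118, 1119, 1120 and 1121, against 0, 1.23, 0.730 and 0.893 in GOAT KO 1139, 1140, 1141 and 1146. The groups did not overlap there either (a difference of -1.25, exact permutation p = 0.0286, and 0.114 without GOAT KO 1139). The groups were thus apart against either junction reference but not per gene count. With the short-form reads, which share the same first site, added to the long form, the exact permutation p over the 8 libraries was 0.0571. The short form made up 13.02%, 18.02%, 13.8% and 15.5% of reads across the last intron in WT, in the same order. It made up 16.4%, 21.9% and 21.7% in GOAT KO 1140, 1141 and 1146, where the exact 95% binomial intervals, which cover counting error only, ran from 12.4% to 27.99%. Without GOAT KO 1139 the share differed by 4.90 percentage points (exact permutation p = 0.0857). Per 1000 gene counts of *Fst* the short form had 5.79 ± 1.21 reads (SD, n = 4) in WT and 6.33 ± 0.609 (SD, n = 4) in GOAT KO (exact permutation p = 0.4).

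Reads across the introns of the beta subunit genes were counted as well. The intron within the coding sequence of *Inhba* had 23, 37, 131 and 62 reads in WT 1118, 1119, 1120 and 1121, against 142, 58, 146 and 148 in GOAT KO 1139, 1140, 1141 and 1146. Per 1000 gene counts this was 28.8 to 40.3 reads. WT 1120 and GOAT KO 1140 again stood apart from their groups, in the same way as in the counts. *Inhbb* had 3 to 40 reads across its single annotated intron. That intron had 0.381 reads per 1000 gene counts in WT 1118 and 1.45 to 2.28 in the other 7 libraries. In every library *Inhba* had more intron-crossing reads than *Inhbb*, the reverse of their order in counts per kilobase. The reason was not tested.

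The type I receptor gene *Acvr1b*, which encodes ALK4, lies on chromosome 15 from 101174067 to 101213684 (+ strand). It had 34.3 to 42.4 CPM in WT and 38.5 to 46.6 CPM in GOAT KO. The log2 difference was 0.14 (SE 0.090, unadjusted p = 0.135 from edgeR), with an interval of ± 2 SE from -0.03 to 0.32. With group means removed, *Acvr1b* ran against *Inhba* (r = -0.87) and *Inhbb* (r = -0.88), but over the 8 libraries as they are r was -0.21 and -0.37 (exact permutation p = 0.616 and 0.373).

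The type II receptor genes *Acvr2a* (chromosome 2 from 48814109 to 48903269, + strand) and *Acvr2b* (chromosome 9 from 119402118 to 119434995, + strand) did not pass the test in either set of libraries. *Acvr2a* had 38.4 to 43.0 CPM in WT and 38.2 to 47.1 CPM in GOAT KO, a log2 fold change of 0.03 with an interval of ± 2 SE from -0.14 to 0.20. *Acvr2b* had 6.25 to 10.2 CPM in WT and 5.97 to 8.30 CPM in GOAT KO, a log2 fold change of -0.01 with an interval of ± 2 SE from -0.35 to 0.34. The sign of both depended on which libraries were used. The last 446 bases of *Acvr2a* overlap *Orc4* on the opposite strand (1150 to 1385 counts), and reads there cannot be told apart without knowing whether strand was used.

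Other genes of activin and related signaling were described by a list of 44, of which 39 had enough counts to be tested. With all 8 libraries 1 was called higher and 1 lower (1.67% of all genes were called), and with the 6 libraries 1 higher and 2 lower (2.39% of all genes). The median log2 fold change of the list was -0.01, beside -0.00035 for all genes, and 15 of the 39 lay above 0. The called genes all came from the part of the list kept for receptors and co-receptors, which held 12 of the tested genes. Of 6 other ligands, 13 SMADs and their modulators, and 8 processing and binding genes, edgeR called 0 in either set of libraries and DESeq2 and limma-voom called 0 over the 8. At an unadjusted p under 0.05 from edgeR there were 3 of these with 8 libraries, *Tgfb1*, *Fstl1* and *Pcsk5*, and 2 with 6, *Fstl1* and *Pcsk5*, named after their values were seen.

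*Acvr1c* encodes ALK7, a type I receptor for activin B and nodal. Its level was 1.24, 0.721, 1.15 and 1.25 CPM in WT 1118, 1119, 1120 and 1121, against 7.77, 2.20, 1.69 and 1.28 CPM in GOAT KO 1139, 1140, 1141 and 1146. The log2 difference was 1.55 (SE 0.55, unadjusted p = 0.0163 from edgeR) with all 8 libraries and 0.68 (SE 0.30, unadjusted p = 0.0448 from edgeR) with the 6. GOAT KO 1139, the library with the most *Acvr1c*, also had the most of the fat cell markers, whose part in this was not tested. *Igsf1*, which encodes a membrane glycoprotein of the pituitary, was low, at 0.619 to 0.713 CPM in WT and 0.174 to 0.597 CPM in GOAT KO. The log2 difference was -0.997 (SE 0.36, unadjusted p = 0.0193 from edgeR), and -1.38 with the 6 libraries. Over the 8 libraries DESeq2 called *Acvr1c* but not *Igsf1*, and limma-voom *Igsf1* but not *Acvr1c*. *Tdgf1*, which encodes the nodal co-receptor Cripto, was called by edgeR with the 6 libraries (log2 -0.54, SE 0.14, unadjusted p = 0.00256 from edgeR) and without WT 1120 alone, but not with all 8. Its pseudogene *Tdgf1-ps1* is counted separately, and how reads that match both were shared is not known here. Its level was 15.8, 13.2 and 12.4 CPM in WT 1118, 1119 and 1121 but 6.80 CPM in WT 1120, under all libraries labelled GOAT KO (8.24 to 10.9 CPM).

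The 5 genes of the list with the highest levels per kilobase were *Gdf9*, *Bmpr1b*, *Fstl1*, *Bmp15* and *Fkbp1a*. The oocyte ligands *Gdf9* and *Bmp15* had log2 fold changes of 0.03 (SE 0.077) and 0.0007 (SE 0.090). *Bmpr1b*, a type I receptor for bone morphogenetic proteins, had 248 CPM in GOAT KO 1139 and 268 CPM in WT 1120, the lowest of the 8 libraries, and a log2 fold change of -0.01. *Fstl1*, a secreted relative of follistatin, had a log2 fold change of 0.22 (SE 0.075, unadjusted p = 0.0145 from edgeR), too small to be called. *Fkbp1a*, whose product binds type I receptors, was at -0.04 (SE 0.071).

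FSH raises *Inha* and *Inhba* in granulosa cells, so 15 genes linked to FSH were also counted, 7 of them genes that the study listed from these libraries and thus not independent evidence. With all 8 libraries 0 were called by edgeR, DESeq2 or limma-voom, while 4 had an unadjusted p under 0.05 by each tool (*Fshr*, *Nppc*, *Hsd17b1* and *Tk1*), as had 767 of the 16601 genes tested by edgeR. Of all genes 1.67% were called with 8 libraries and 2.39% with 6. *Fshr*, *Cyp19a1* and *Nppc* were called higher with the 6. *Fshr*, the FSH receptor gene, had 33.0, 35.6, 42.8 and 32.7 CPM in WT 1118, 1119, 1120 and 1121, against 36.9, 42.5, 55.7 and 64.3 CPM in GOAT KO 1139, 1140, 1141 and 1146. It had a log2 value of 0.47 (SE 0.16) with 8 libraries and 0.68 (SE 0.13) with 6. *Nppc*, the gene of C-type natriuretic peptide, which holds oocytes in meiotic arrest, had 11.8 to 17.2 CPM in WT and 19.2 to 24.1 CPM in GOAT KO, without overlap (as for 2.92% of all genes), a log2 difference of 0.49 (SE 0.12, unadjusted p = 0.00226 from edgeR). *Cyp19a1*, the aromatase gene, ran highest in WT 1120 (64.9 CPM) and GOAT KO 1139 (45.1 CPM), where *Inhbb* was also highest. Across the 8 libraries r with *Inhba* ran from -0.88 (*Wt1*) to 0.92 (*Cyp11a1*) over the 15 genes, given as a description.

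The genes most like each subunit gene in pattern were found by Pearson's r of log2 CPM over the 8 libraries, among 15450 other genes with a mean of at least 1 CPM. For *Inhba* these were *Fbxl13* (r = 0.97), *Cdc25b*, *Cars*, *Ppap2a* and *Fam50a*. For *Inhbb* they were *Mgat1* (r = 0.97), *Ap1s1*, *Gas2*, *Slc25a3* and *Lrrc42*, and for *Inha* they were *RP23-172K2.12* (r = 0.98), *Tmem110*, *Pkm*, *Atxn7l3* and *Timm17b*. For *Fst* they were *Eps8l3* (r = 0.98), *Bub1b*, *Decr2*, *Cep83os* and *Ankrd16*. The 4 sets of 5 shared no gene. *Cdc25b*, which encodes a phosphatase that drives cell division, varied far less than *Inhba*, from 51.4 to 60.5 CPM.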

How the data were processed

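Single reads of 50 bases from ovaries of 4 WT and 4 GOAT KO mice were cleaned by the authors and aligned to mm10 (GRCm38) with TopHat2 2.0.14, and the authors deposited raw counts per gene symbol, not normalized. The tool that counted reads and its use of strand are not given in the sources used here. The deposited junction counts are reads across each splice, per library. The StringTie 1.0.4 assemblies and the table of mapping percentages were not used.

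Counts were fitted with edgeR 4.0.16 in R 4.3.3 (TMM, filterByExpr with a minimum count of 10 and a total of 15, genotype only), with the quasi-likelihood test of GOAT KO over WT. Each SE is the ratio of the log2 fold change to the square root of F. CPM were divided by GENCODE vM21 exon length for RPKM, and log2 CPM used a prior count of 2. Single values were compared by two-sided exact permutation of the libraries. Each library is 1 mouse, the mice were littermates, and which of them shared a litter is not given in the sources used here. No pair of libraries of a group agreed within sampling noise (chi-square per gene 4.22 to 27.1). The fit was checked on simulated data.

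Alternatives were RLE size factors, no filter on low counts, DESeq2 1.42.0, limma-voom (limma 3.58.1), 6 libraries without WT 1120 and GOAT KO 1139, each library left out in turn, a fold limit of 0.3, ratios without gene length, a geometric mean of markers, and other references for the *Fst* junctions. Added after seeing the data were the share of the short *Fst* form, the counts of junctions at 0 and the long form per gene count. So were the short-form reads added to the long form, and the alternatives of the lists and of the 6 libraries for junctions. Named are the 8 genes, *Mboat4*, called genes of the activin and FSH lists, the 5 highest genes of the activin list and the 5 most similar genes of *Inha*, *Inhba*, *Inhbb* and *Fst*. The genes described and all lists were chosen with earlier results of these data known. Of 38 tested markers of theca, oocyte, surface epithelium, oviduct, leukocyte, blood and luteal cells, edgeR called 0 with 8 or 6 libraries and DESeq2 and limma-voom 0 with 8 (4 and 7 had an unadjusted p under 0.05 from edgeR, and 3 and 4 from the others).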

Additional observations from a re-analysis of the deposited data

Results flagged for a closer look

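Of 54 groups of 4 libraries examined for a library far from the others, 4 held one, where chance alone gives about 1 in 20. The short form made up 100% of the last-intron *Fst* reads in GOAT KO 1139 (38 reads) and 16.4% to 21.9% in the other libraries labelled GOAT KO. The *Fst* junction of chromosome 13 between 114455903 and 114456362 had 123 reads in WT 1120 and 192 to 197 in the other WT libraries. The *Inhba* coding junction (16017684 to 16026242) had 58 reads in GOAT KO 1140 and 142 to 148 in the rest of its group. A junction at the start of *Inha* outside the annotation (chromosome 1, 75507350 to 75507462) had 241 reads in GOAT KO 1146 and 0 to 5 in the rest of its group, and 0 to 6 in WT. Another *Inha* junction from the same first base, to 75509333, had 59, 153, 134 and 0 reads in WT 1118, 1119, 1120 and 1121, against 119, 5, 152 and 109 in GOAT KO 1139, 1140, 1141 and 1146, beside 2497 to 4053 reads on the annotated intron.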

How the results depend on the processing

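The number of genes called was 278, and 691 without a filter on low counts, 473 at a fold limit of 0.3 and 231 to 437 with 1 library left out, 437 of them without WT 1120. Of the 8 genes 1 was called, 2 with the 6 libraries or at 0.3, 0 after adjustment and 0 to 2 with 1 library left out (0 without WT 1118, 1119, 1121 or GOAT KO 1146, 2 without WT 1120). Log2 fold changes with 1 library left out were 0.04 to 0.16 for *Inha*, 0.73 to 1.41 for *Inhba*, 0.26 to 0.72 for *Inhbb*, 0.26 to 0.46 for *Fst*, -0.42 to -0.21 for *Fstl3*, 0.09 to 0.20 for *Acvr1b*, -0.028 to 0.071 for *Acvr2a* and -0.10 to 0.16 for *Acvr2b*. *Inhbb* passed an unadjusted p of 0.05 from edgeR at 0.42 without a filter and 0.57 with the 6 libraries, and *Acvr2b* changed sign with limma-voom (0.0066) and the 6 libraries (0.0013). The group difference of the log2 ratio was 0.45 to 0.73 for *Inhba* to *Inhbb*, -0.62 (without WT 1120) to -0.29 for *Inha* to the beta subunits, -0.52 to 0.031 for the follistatins to the beta subunits, 0.031 without GOAT KO 1139, and 0.72 to 1.27 for *Inhba* to granulosa markers. For the long-form *Fst* splice the difference of the linear ratio was -1.44 to -0.71, and -0.71 with the 6 libraries and -1.01 with short-form reads added (exact permutation p = 0.1 and 0.0571, and 0.0571 without any 1 of the WT libraries). As long-form reads per 1000 gene counts the difference was -13.2 (exact permutation p = 0.114). The activin list had 2 genes called, 1 with DESeq2 (*Acvr1c*), 1 with limma-voom (*Igsf1*) and 1 to 3 with 1 library left out (1 without GOAT KO 1140 or 1146). The FSH list had 0, 3 with the 6 libraries and 0 to 4 with 1 left out (4 without WT 1120). The cause of these changes was not tested. Counts limit *Fstl3* and *Acvr2b*, and *Mboat4* most.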
